A study of Mus musculus with 36 samples.

Results

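Tagln, Acta2, Cald1, Tpm1, Tpm2, Dcn and Timp3 are genes of contractile and mesenchymal cells, followed here in differentiating mouse embryonic stem cells. The members were every probe set that the platform annotation gives to 1 of these 7 symbols, 13 of the 24833 probe sets that are not controls on chips A and B of an Affymetrix mouse genome set, and with 1 main probe set a gene they are 7 of 9833 measured genes. The cells carried Oct4:eGFP, which makes them fluoresce as long as Oct4 (Pou5f1), a transcription factor of undifferentiated cells, is active. Their routine culture used a feeder layer of mitomycin-treated embryonic fibroblasts and leukemia inhibitory factor (LIF), a cytokine needed for self-renewal, and for the experiment they were plated on gelatin. Control cells, harvested 2 days after plating, stayed in LIF at 1000 U/mL. The other arms lost LIF for 1, 3 or 5 days, or lost LIF and received 0.1 uM retinoic acid (RA), a vitamin A derivative that drives differentiation, over 1 or 2 days. Flow sorting on eGFP gave a high, a medium and a low gate, and RNA went through 2 rounds of amplification before hybridisation. The labels do not say whether feeder fibroblasts were removed, nor name separate cultures for the samples of a group, so the spread behind the p-values may be technical.

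The 18 RNA samples, each on both chips, comprised 3 controls (high gate replicates 1 and 2, medium gate), 4 at day 1 without LIF (high gate replicates 1 and 2, medium, low), 3 each at day 3 and day 5 without LIF and at day 1 with RA (high, medium, low), and 2 at day 2 with RA (medium, low). Signals below follow this order within each arm. Arms were compared with limma on log2(signal + pseudocount), with arm and gate as additive terms, over the 14900 brightest probe sets, and a result past the test has an adjusted p under 0.05. Changes are given on that log2 scale with the standard error of the fit. In sorted bulk samples, fewer cells of a type and less RNA per cell cannot be told apart.

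Actin filaments slide on myosin to give a cell tension, and smooth muscle cells build their contractile filaments from the actin isoform encoded by Acta2. Tropomyosins (Tpm1, Tpm2) lie along the filament and gate the access of myosin, caldesmon (Cald1) binds actin and tropomyosin and restrains myosin, and transgelin (Tagln) binds and bundles actin. Many of these genes are controlled by serum response factor (SRF) with myocardin-related cofactors, through a promoter element called the CArG box, and they are also induced by TGF-beta. Decorin (Dcn) is a small leucine-rich proteoglycan that decorates collagen fibrils and binds TGF-beta, and Timp3 is a matrix-bound inhibitor of metalloproteinases. All are used as markers of smooth muscle, fibroblasts or mesenchyme, while Tpm1, Cald1 and Tagln are also made by many spreading cells outside muscle.

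The main probe sets were 93541_at (Tagln), 93100_at (Acta2), 160532_at (Tpm1), 100605_at (Tpm2), 93534_at (Dcn) and 160519_at (Timp3) on chip A and 112386_at (Cald1) on chip B. In assembly GRCm38.p6 of the RefSeq annotation, the actin-filament genes lie at chr9:45929628-45936058 (Tagln), chr19:34240336-34255585 (Acta2), chr6:34598495-34775469 (Cald1), chr9:67022590-67049672 (Tpm1) and chr4:43513726-43523583 (Tpm2). The matrix genes lie at chr10:97479500-97518163 (Dcn) and chr10:86300412-86349505 (Timp3). The RefSeq promoter table, which gives 250 bases before and 50 after a start site, matched 5 of the 7 members with 6 promoters. Its start sites need not be the outer ends of the gene spans above. For Acta2, Tpm1 and Tpm2 the site lies inside that span, and for Tpm1 the whole window does. Motif distances below count from the start site of the window. Those of Acta2, Tpm1, Tpm2 and Timp3 are shown because Acta2 and Tpm1 passed the test against control in several comparisons, Tpm2, the paralog of Tpm1, in none, and Timp3 in 1. Capitals mark CArG-like matches (the CArG box, on either strand, with 1 other base allowed among its middle 6) and CATTCC, the MCAT element of muscle genes, searched on both strands. Sequences run 5′ to 3′ in the gene's direction.
Acta2 promoter, chr19:34255324-34255623, minus strand: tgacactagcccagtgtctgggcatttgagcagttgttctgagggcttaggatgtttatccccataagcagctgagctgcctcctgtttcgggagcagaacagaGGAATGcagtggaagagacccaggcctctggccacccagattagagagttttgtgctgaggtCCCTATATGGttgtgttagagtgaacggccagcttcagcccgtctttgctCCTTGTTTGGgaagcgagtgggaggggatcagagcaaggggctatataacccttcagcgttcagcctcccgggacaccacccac
Tpm1 promoter, chr9:67049164-67049463, minus strand: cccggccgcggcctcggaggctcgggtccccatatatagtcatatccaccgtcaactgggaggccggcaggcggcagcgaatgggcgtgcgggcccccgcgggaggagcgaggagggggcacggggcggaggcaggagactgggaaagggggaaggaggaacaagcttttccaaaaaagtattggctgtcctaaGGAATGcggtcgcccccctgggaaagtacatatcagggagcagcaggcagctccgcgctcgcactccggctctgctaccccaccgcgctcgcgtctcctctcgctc
Tpm2 promoter, chr4:43523505-43523804, minus strand: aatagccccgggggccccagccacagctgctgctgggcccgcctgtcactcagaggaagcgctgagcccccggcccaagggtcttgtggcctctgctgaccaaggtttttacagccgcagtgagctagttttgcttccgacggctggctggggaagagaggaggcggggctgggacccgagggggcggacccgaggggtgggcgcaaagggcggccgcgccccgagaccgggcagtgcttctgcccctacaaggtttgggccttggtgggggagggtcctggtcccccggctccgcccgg
Timp3 promoter, chr10:86300162-86300461, plus strand: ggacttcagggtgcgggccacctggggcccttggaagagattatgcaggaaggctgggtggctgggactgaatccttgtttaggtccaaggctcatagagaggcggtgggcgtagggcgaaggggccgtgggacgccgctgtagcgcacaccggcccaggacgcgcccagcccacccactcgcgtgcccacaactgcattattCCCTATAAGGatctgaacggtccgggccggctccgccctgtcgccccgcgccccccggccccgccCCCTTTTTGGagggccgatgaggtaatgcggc

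None of the 6 member promoters held an exact CArG box, which 1.63% of the table's 32851 promoters hold. Acta2 had 2 CArG-like matches, CCCTATATGG beginning 84 bases and CCTTGTTTGG beginning 34 bases before the start site. Timp3 also had 2, CCCTATAAGG beginning 47 bases before and CCCTTTTTGG beginning 18 bases after it. Of all promoters, 9.98% held a match of this looser kind. CATTCC occurred once each in Acta2, Tpm1 and the upstream Cald1 promoter, in every case on the opposite strand, and in 14.7% of all promoters, and Tpm2 held no match to either motif. These are letter matches in a short window, and no binding was measured.

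One library has to be named before the values. Replicate 2 of the high gate in the arm labelled day 1 without LIF had a Tagln signal of 476, whereas the other 3 libraries of its arm had 61.0, 88.2 and 85.5. Over the 11 member probe sets that passed the brightness filter, its mean absolute log2 difference was 0.485 from the day 3 libraries, 0.528 from the day 1 libraries with RA and 1.02 from the other libraries of its own arm. Its run record lacks the mark for culture without RA that the records of the other libraries of days 1, 3 and 5 without LIF carry. It also lacks the mark for RA that the record of every RA library carries, and the records of the controls have neither mark. The library was scanned on another day than the rest of its arm. It was kept under its label, and results that rest on it are given with and without it. By their run records the arrays fall into 4 scan days. This library and control high replicate 2 made up scan 1, and the remaining controls scan 4. Scan 2 comprised the day 3 arm and the arm of day 1 with RA. Scan 3 comprised the day 5 arm, the arm of day 2 with RA and the other 3 libraries of day 1 without LIF. The log2 ratio of 3′ to 5′ Actb signal on chip A, a sign of RNA integrity, was 1.1 to 1.34 in controls, 0.827 to 0.937 at day 5, 1.26 to 1.45 at day 1 with RA and 0.788 to 0.863 at day 2 with RA, and its part in the results was not tested.

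**Figure D1:**
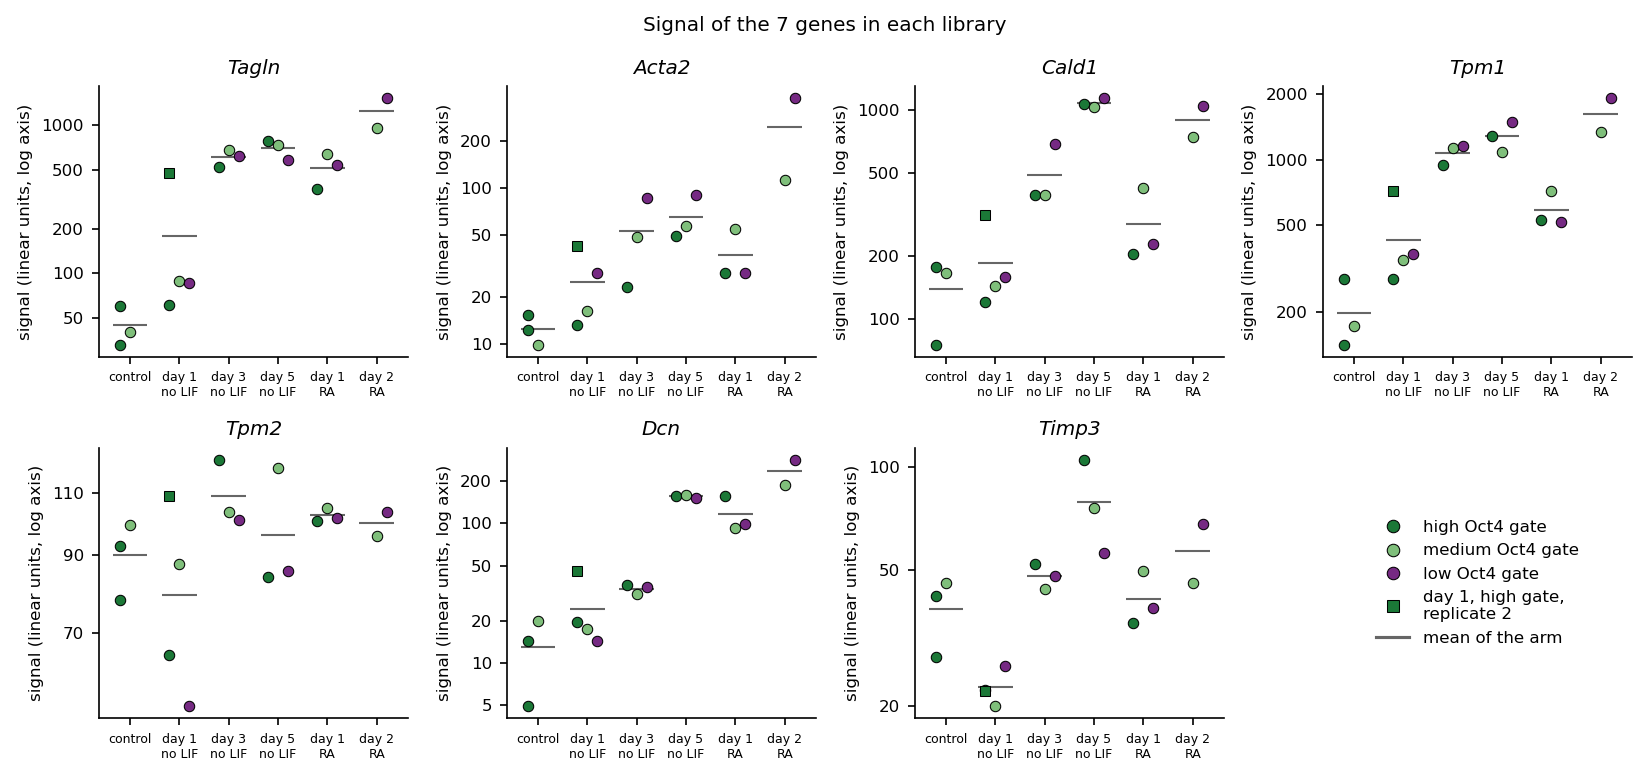
Signal of the main probe set of each gene in every library (vertical log axis, linear signal units), with 1 point per library in its arm, coloured by Oct4 gate, a square for day 1 high replicate 2 and a line for the arm's mean. Tagln spans 33.0 to 1515, Tpm2 only 55.2 to 122, and the square stands above the rest of its arm for Tagln, Acta2, Cald1, Tpm1, Tpm2 and Dcn.

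Tagln, the actin-bundling protein of smooth muscle, rose against control by day 3 without LIF and by day 1 with RA. Its signals were 33.0, 60.4 and 40.1 in the controls and 61.0, 476, 88.2 and 85.5 at day 1 without LIF. They were 524, 680 and 617 at day 3 and 781, 731 and 585 at day 5. With RA they were 371, 639 and 538 at day 1 and 961 and 1515 at day 2. Every library at days 3 and 5 and every RA library lay above every control, and the day 3, day 5 and day 1 RA libraries overlapped one another. Against control, Tagln was 3.74 ± 0.56 higher at day 3 (adjusted p = 0.00092), 3.94 ± 0.56 at day 5 (adjusted p = 0.000108), 3.48 ± 0.56 at day 1 with RA (adjusted p = 0.000804) and 4.79 ± 0.65 at day 2 with RA (adjusted p = 0.000365). These comparisons share their controls. The day 1 change without LIF was 1.46 ± 0.51 and did not pass (adjusted p = 0.146), and it was 0.71 without the library that stood apart (adjusted p = 0.131). Between days 3 and 5 Tagln differed by 0.20, with a 95% interval of ± 1.15 around it (adjusted p = 0.822). In order of mean signal the arms ran control (44.5 ± 14.2, SD, n = 3), day 1 without LIF (178 ± 200, n = 4, or 78.2 ± 15.0 over the other 3), day 1 with RA (516 ± 135, n = 3), day 3 (607 ± 78.5, n = 3), day 5 (699 ± 102, n = 3) and day 2 with RA (1238 ± 392, n = 2).

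Acta2, the smooth muscle actin, rose at day 5 without LIF and had its highest signals at day 2 with RA. Its signals were 12.4, 15.3 and 9.97 in the controls and 13.2, 42.6, 16.4 and 28.5 at day 1 without LIF. They were 23.1, 48.5 and 86.9 at day 3, 49.2, 57.1 and 90.6 at day 5 and 28.4, 54.4 and 28.4 at day 1 with RA, against 113 and 375 at day 2 with RA. Both day 2 RA libraries lay above every other library, and they differed from each other more than the 3 day 5 libraries did. Acta2 rose by 1.81 ± 0.45 at day 5 (adjusted p = 0.00591) and by 3.33 ± 0.52 at day 2 with RA (adjusted p = 0.000855) against control. At day 3 the difference was 1.39 ± 0.45 and did not pass (adjusted p = 0.0504), but it passed at 1.32 without the library that stood apart (adjusted p = 0.0242) and at 1.87 without the day 3 high library (adjusted p = 0.0354). At day 1 with RA it was 1.03 ± 0.45 (adjusted p = 0.111), and it passed at 1.40 without the RA low library (adjusted p = 0.0425). Mean signals ranged from 12.6 ± 2.69 (SD, n = 3) in controls to 65.6 ± 22.0 (n = 3) at day 5 and 244 ± 185 (n = 2) at day 2 with RA. On the controls alone the Acta2 probe set would not have passed the brightness filter, so its control level lies near the dim end of the chip.

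Cald1, the caldesmon gene, rose at days 3 and 5 without LIF and at day 2 with RA. Its main probe set gave 177.5, 75.1 and 166 in the controls, 120, 314, 144 and 159 at day 1 without LIF, 395, 392 and 688 at day 3 and 1079, 1043 and 1144 at day 5. With RA it gave 204, 424 and 227 at day 1 and 742 and 1050 at day 2. The day 5 libraries lay above all day 3 libraries, and the day 1 RA libraries all lay above the controls. The change from control was 1.73 ± 0.40 at day 3 (adjusted p = 0.0187), 2.91 ± 0.40 at day 5 (adjusted p = 0.000197) and 2.55 ± 0.47 at day 2 with RA (adjusted p = 0.0044). The 0.93 ± 0.40 at day 1 with RA did not pass (adjusted p = 0.133). The call at day 3 was lost without control high replicate 2 (1.38, adjusted p = 0.0553), without the day 3 high library (1.83, adjusted p = 0.0583) and without the day 3 low library (1.52, adjusted p = 0.063).

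Tpm1, a tropomyosin shared by muscle and non-muscle cells, rose against control in the same 4 arms as Tagln. Its main probe set gave 143, 283 and 173 in the controls, 283, 716, 348 and 370 at day 1 without LIF, 942, 1132 and 1153 at day 3 and 1289, 1090 and 1481 at day 5. With RA it gave 531, 717 and 521 at day 1 and 1335 and 1911 at day 2. The libraries of day 1 with RA all lay above the controls and below those of day 3. Tpm1 rose by 2.45 ± 0.32 at day 3 (adjusted p = 0.000395), 2.70 ± 0.32 at day 5 (adjusted p = 2.55e-05), 1.58 ± 0.32 at day 1 with RA (adjusted p = 0.00337) and 3.03 ± 0.37 at day 2 with RA (adjusted p = 0.00017). At day 1 without LIF the 1.04 ± 0.30 did not pass (adjusted p = 0.0757), but passed without control high replicate 2 (1.31, adjusted p = 0.0329) and without day 1 high replicate 1 (1.25, adjusted p = 0.0462). The step from day 3 to day 5 was 0.25 ± 0.31 (adjusted p = 0.593).

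Tpm2, the other tropomyosin of the set, passed the test in none of the comparisons with control, and its signals kept a narrow range. Its main probe set gave 77.9, 92.7 and 99.1 in the controls, 65.1, 109, 87.4 and 55.2 at day 1 without LIF, 122, 103 and 100.8 at day 3 and 83.7, 119 and 85.6 at day 5. With RA it gave 100.4, 105 and 101.6 at day 1 and 95.8 and 103.6 at day 2. All arms overlapped the controls except those of day 3 and day 1 with RA, whose lowest libraries lay just above the highest control. The change from control was 0.14 at day 5 with a 95% interval of ± 0.44 (adjusted p = 0.65) and 0.22 at day 2 with RA with an interval of ± 0.51 (adjusted p = 0.588), so a rise of the size seen for Tpm1 lies outside both intervals.

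Dcn, the collagen-binding proteoglycan, rose at day 3 and further at day 5 without LIF, and rose at day 1 and day 2 with RA. Its signals were 4.95, 14.5 and 19.9 in the controls and 19.8, 45.4, 17.4 and 14.5 at day 1 without LIF. They were 36.1, 31.3 and 35.2 at day 3 and 156, 160 and 152 at day 5, against 157, 93.0 and 98.3 at day 1 with RA and 188 and 285 at day 2. The day 1 RA libraries all lay above the day 3 libraries, and the 3 day 5 libraries lay close together. Against control, Dcn rose by 1.34 ± 0.38 at day 3 (adjusted p = 0.0293), 3.41 ± 0.38 at day 5 (adjusted p = 1.44e-05), 2.96 ± 0.38 at day 1 with RA (adjusted p = 0.000211) and 4.03 ± 0.44 at day 2 with RA (adjusted p = 7.57e-05). From day 3 to day 5 it rose by 2.07 ± 0.36 (adjusted p = 0.000971). The call at day 3 was lost without control high replicate 1 (0.90, adjusted p = 0.109) and without the high, medium or low day 3 library (1.39, 1.38 and 1.28, adjusted p = 0.0888, 0.0723 and 0.0773). Like Acta2, the Dcn probe set would not have passed the filter on the controls alone, and with 4 times the pseudocount the day 3 change was 0.88.

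Timp3, the inhibitor of matrix proteases, had its lowest signals at day 1 without LIF and its highest at day 5. It gave 27.9, 41.9 and 45.9 in the controls, 22.4, 22.2, 20.05 and 26.2 at day 1 without LIF, 52.1, 44.0 and 47.9 at day 3 and 105, 75.5 and 55.9 at day 5. With RA it gave 35.03, 49.8 and 38.8 at day 1 and 45.8 and 67.8 at day 2. All 4 day 1 libraries without LIF lay below every control, and for this gene replicate 2 of the high gate lay within the range of its arm. The difference at day 1 was -0.65 ± 0.22 and did not pass (adjusted p = 0.13). Timp3 rose by 0.95 ± 0.24 at day 5 against control (adjusted p = 0.00664), a call lost without the day 5 high library (0.64, adjusted p = 0.0703) and with scan day as a fixed block (0.78, adjusted p = 0.262). The 0.53 ± 0.28 at day 2 with RA did not pass (adjusted p = 0.212). From day 1 to day 3 it rose by 0.97 ± 0.22 (adjusted p = 0.0252), a call lost without any 1 of the 3 day 3 libraries.

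**Figure D2:**
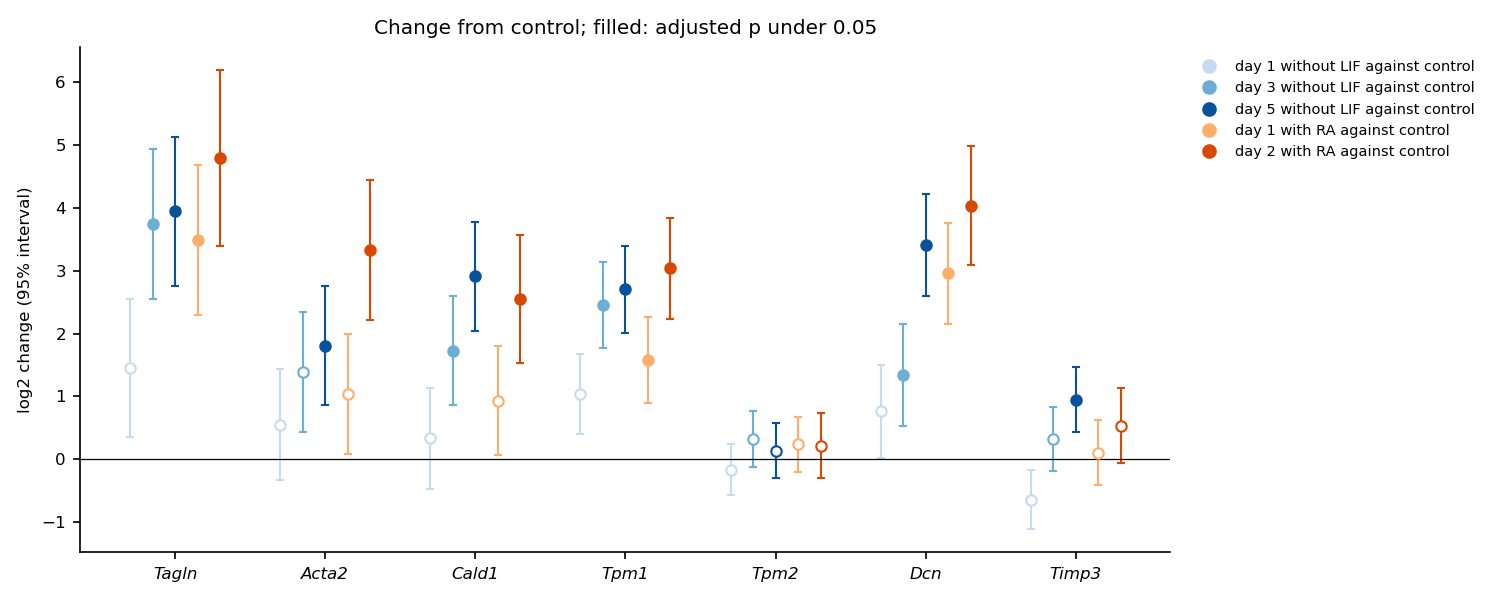
Fitted log2 change from control of each gene's main probe set (vertical axis, log2 units) in the 5 other arms, with 95% intervals and filled points where the adjusted p is under 0.05. Tagln and Dcn reach 4.79 and 4.03 at day 2 with RA, while no point of Tpm2 is filled.

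Of the 13 probe sets 11 passed the brightness filter, and 4 of these (Acta2, Dcn, and a probe set each of Cald1 and Tpm1) would not have passed on the controls alone, so the counts that follow describe these probe sets and support nothing by themselves. Without LIF, 0 of 11 passed the test at day 1 against control, where 2.06% of all tested probe sets did. At day 3, 6 were higher (11.5% of all called in either direction), and at day 5, 10 were higher (29.3% called). With RA, 5 were higher at day 1 (19.5% called) and 9 at day 2 (15.2% called). Without the day 3 low library the day 3 count was 3. No library of days 3 and 5 or of the RA arms shares a scan day with a control, so arm and scan day cannot be told apart in these comparisons. With scan day as a random block the counts were 3 at day 3, 10 at day 5, 4 at day 1 with RA and 9 at day 2 with RA. At day 3 Tagln (3.88, adjusted p = 0.00619) and Tpm1 (2.45, adjusted p = 0.00541) then passed, whereas Cald1 (adjusted p = 0.0724) and Dcn (adjusted p = 0.186) did not. The probe set not called at day 5 was that of Tpm2, and those not called at day 2 with RA were Tpm2 and Timp3.

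Steps between arms without LIF were unequal. From day 1 to day 3, 3 of 11 rose (3.41% of all called), namely Tagln by 2.29 ± 0.51 (adjusted p = 0.0241), Tpm1 by 1.41 ± 0.29 (adjusted p = 0.0197) and Timp3. Without day 1 high replicate 2 the count was 10, with Cald1 at 1.71 (adjusted p = 0.00437), Acta2 at 1.17 (adjusted p = 0.0384) and Tpm2 at 0.64 (adjusted p = 0.0133). It was 0 without any 1 of the other 3 day 1 libraries or of the 3 day 3 libraries. From day 3 to day 5, 4 of 11 rose (19.4% called), which were Dcn, the other pair of Cald1 probe sets (1.59 ± 0.32 and 1.61 ± 0.25, adjusted p = 0.00539 and 0.00078) and a further Tpm1 probe set (1.19 ± 0.34, adjusted p = 0.032). The main Cald1 probe set differed by 1.19 ± 0.39 (adjusted p = 0.0586), and by the same 1.19 with adjusted p = 0.0192 without day 1 high replicate 2, when 6 of 11 were called. The day 3 and day 5 arms were each scanned on 1 day that the other does not share, so scan day and arm cannot be told apart in these steps.

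Tagln and Dcn were higher at day 1 with RA than at day 1 without LIF alone. At this matched time of 1 day, 4 of 11 probe sets were higher with RA than without (6.52% of all called). They were Dcn (2.20 ± 0.34, adjusted p = 0.00722), Tagln (2.03 ± 0.51, adjusted p = 0.0266), Timp3 (0.75 ± 0.22, adjusted p = 0.0466) and a Cald1 probe set (1.27 ± 0.23, adjusted p = 0.0173). Acta2 differed by 0.48 with a 95% interval of ± 0.87 (adjusted p = 0.504) and Tpm1 by 0.54 ± 0.29 (adjusted p = 0.276). Without day 1 high replicate 2, 9 of 11 were higher, with Tagln at 2.64 (adjusted p = 1.87e-05), Dcn at 2.47 (adjusted p = 0.000132), Tpm1 at 0.81 (adjusted p = 0.024) and Tpm2 at 0.56 (adjusted p = 0.022). The count was 2 without the RA high library and 1 without any other of the 5 remaining libraries of these arms, which each ended the Tagln call (1.68 to 1.93, adjusted p from 0.0716 to 0.12). The Timp3 call was lost without any 1 of 11 libraries, some of them in neither arm (adjusted p from 0.0536 to 0.202). All day 1 RA libraries were scanned on scan 2 and no day 1 library without LIF was, so RA and scan day cannot be told apart here. With scan day as a random block, 0 of 11 passed, with Tagln at 1.65 (adjusted p = 0.522) and Dcn at 2.03 (adjusted p = 0.38).

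Comparisons inside 1 scan day do not have this limit, but they have another. Each was fitted on the libraries of its arms alone, with 1 library a gate in each arm and gate as a term. Few libraries are then left to measure the spread, so the small standard errors are themselves uncertain. Within scan 3, from which the library that stood apart is absent, day 5 exceeded day 1 without LIF for 11 of 11 probe sets (27.9% of all called). Tagln was 3.10 ± 0.20 higher (adjusted p = 0.000374), Dcn 2.92 ± 0.14 (adjusted p = 0.000153), Cald1 2.89 ± 0.15 (adjusted p = 0.0024), Tpm1 1.93 ± 0.15 (adjusted p = 0.000727), Timp3 1.59 ± 0.22 (adjusted p = 0.00444) and Acta2 1.58 ± 0.12 (adjusted p = 0.00069). Tpm2 rose least, by 0.46 ± 0.13 (adjusted p = 0.0423), and this call was lost without any 1 of the 6 libraries (0.39 to 0.51, adjusted p from 0.0742 to 0.186). On the same scan day, day 2 with RA exceeded day 1 without LIF for 9 of 11 (6.01% called), in a comparison added after the other results were seen. Tagln was 3.74 ± 0.24 higher (adjusted p = 0.00264), Dcn 3.56 ± 0.25 (adjusted p = 0.0034), Acta2 3.03 ± 0.28 (adjusted p = 0.00541) and Timp3 1.15 ± 0.19 (adjusted p = 0.0235), while Tpm2 differed by 0.49 ± 0.24 (adjusted p = 0.258). Without the brightness filter 0 of 11 passed for RA (Tagln adjusted p = 0.0615). This pair of comparisons shares the day 1 libraries. In a fit of all 8 libraries of scan 3, chosen after the data were seen, day 5 against day 1 gave 10 of 11, without Tpm2 (0.46, adjusted p = 0.073), and day 2 with RA against day 1 gave 10, or 4 without either RA library.

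Acta2 was the 1 member past the test between day 2 with RA and day 5 without LIF, in the comparison within a scan day. As for Acta2, both RA libraries lay above every day 5 library for Tagln (961 and 1515 against 585 to 781). The same held for Dcn (188 and 285 against 152 to 160). Over all 18 libraries 0 of 11 passed between these arms (8.16% of all called), and the Acta2 difference was 1.52 ± 0.49 (adjusted p = 0.0645). It was 0.88 without the RA low library (adjusted p = 0.513) and 2.17 without the RA medium library (adjusted p = 0.0696). Within scan 3 Acta2 was the 1 probe set of 11 that passed (4.07% called), 1.47 ± 0.28 higher with RA (adjusted p = 0.0354). It did not pass without the brightness filter (adjusted p = 0.181). In the fit of all 8 libraries of scan 3 it was 1.46 higher (adjusted p = 0.0143), and this call was lost without the RA low library (0.94, adjusted p = 0.0694) or the day 5 low library (1.27, adjusted p = 0.0604). In the fit of the day 5 and day 2 RA libraries alone, Tagln was 0.88 ± 0.27 higher with RA and did not pass (adjusted p = 0.109). For Cald1 the difference was -0.31 with a 95% interval of ± 0.57, for Tpm1 0.33 ± 0.42, for Dcn 0.56 ± 0.54 and for Timp3 -0.21 ± 0.64, these being intervals. Days of treatment differ between the arms.

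Within scan 2, day 1 with RA was set against day 3 without LIF, where 2 of 11 passed (1.64% of all called). Dcn was 1.62 ± 0.17 higher with RA (adjusted p = 0.0144) and Tpm1 0.87 ± 0.15 lower, a log2 change of -0.87 (adjusted p = 0.0405). Tagln differed by -0.26 with a 95% interval of ± 0.35 (adjusted p = 0.309). The order of the libraries shows the same contrast, since Dcn signals were 93.0 to 157 with RA and 31.3 to 36.1 at day 3, and Tpm1 signals 521 to 717 with RA and 942 to 1153 at day 3. Leaving out the low library of either arm ended both calls, for Dcn at 1.73 (adjusted p = 0.0881) and for Tpm1 at -0.74 (adjusted p = 0.13), and leaving out either high library ended that of Tpm1 (-0.90, adjusted p = 0.0622). Neither passed without the brightness filter (adjusted p = 0.104 for Dcn and 0.147 for Tpm1).

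**Figure D3:**
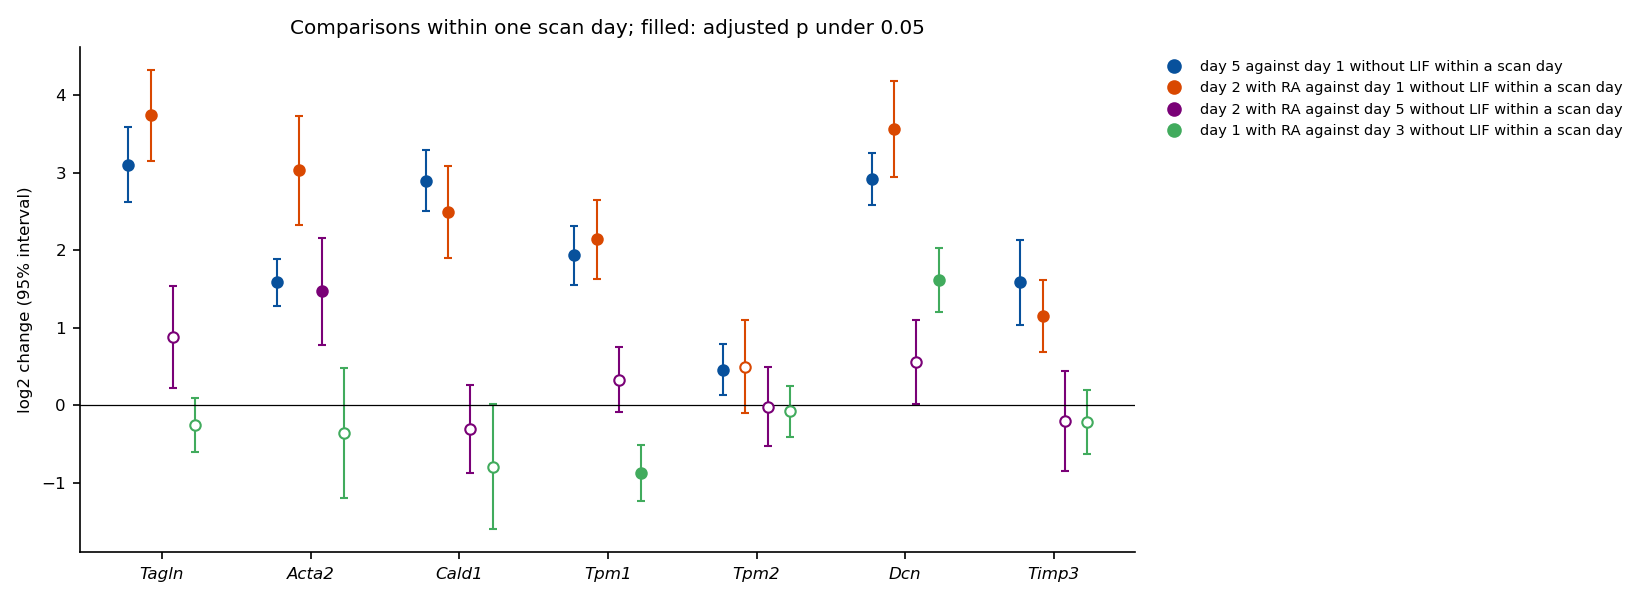
Fitted log2 change of each gene's main probe set (vertical axis, log2 units) in 4 comparisons of arms scanned on 1 day, with 95% intervals and filled points where the adjusted p is under 0.05. Day 1 with RA against day 3 is above 0 and filled for Dcn (1.62) and below 0 and filled for Tpm1 (-0.87), and day 2 with RA against day 5 is filled for Acta2 (1.47) alone.

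No member passed the test between the Oct4 gates. Between the low and the high gate 0 of 11 passed, as for all tested probe sets (0% called, 808 of them with an unadjusted p under 0.05). The fitted low minus high difference ran from -0.22 for Dcn to 0.69 ± 0.34 for Acta2 (adjusted p = 0.823). In single arms Acta2 was higher in the low than in the high gate by 0.92 at day 1 without LIF, where high replicate 1 was used, by 1.75 at day 3 and by 0.83 at day 5, and differed by less than 0.001 at day 1 with RA, each from 1 library a gate. The slope per day without LIF differed between low and high gate by -0.12 for Tagln to 0.22 for a Cald1 probe set, with 0 of 11 past the test (0% of all called, 388 with an unadjusted p under 0.05). No control was from the low gate. The low slope thus began at day 1 and the high slope at the controls, taken as day 0, so the spans are unequal. Pou5f1 itself, whose reporter set the gates, was 0.28 ± 0.25 lower in the low gate, a log2 change of -0.28 (adjusted p = 0.935), and it fell by 1.81 ± 0.33 at day 5 (adjusted p = 0.00067) and by 2.47 ± 0.38 at day 2 with RA (adjusted p = 0.000776).

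Probe sets of the same gene ran largely in parallel. The 3 Cald1 probe sets correlated over the 18 libraries at 0.883 to 0.948 and rose by 2.54 to 3.05 at day 5. At day 1 with RA, however, the dimmest of them passed against control (1.95 ± 0.25, adjusted p = 0.000549) with signals of 105, 181 and 142 against 18.7, 28.7 and 32.6, while the other 2 did not. The 4 Tpm1 probe sets correlated at 0.767 to 0.928, and the 3 past the filter rose by 2.31 to 2.70 at day 5. The main probe set differed by 0.25 from day 3 to day 5, where the next brightest went from 197, 165 and 222 to 458, 396 and 508. The Tpm1 probe set under the filter gave 9.50 to 30.9 in controls and 47.5 to 75.0 at day 5. The second Tpm2 probe set, also under the filter, stayed between 3.06 and 17.7 in all libraries and correlated with the main one at 0.431. These correlations are descriptions over libraries that share the same treatments.

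**Figure D4:**
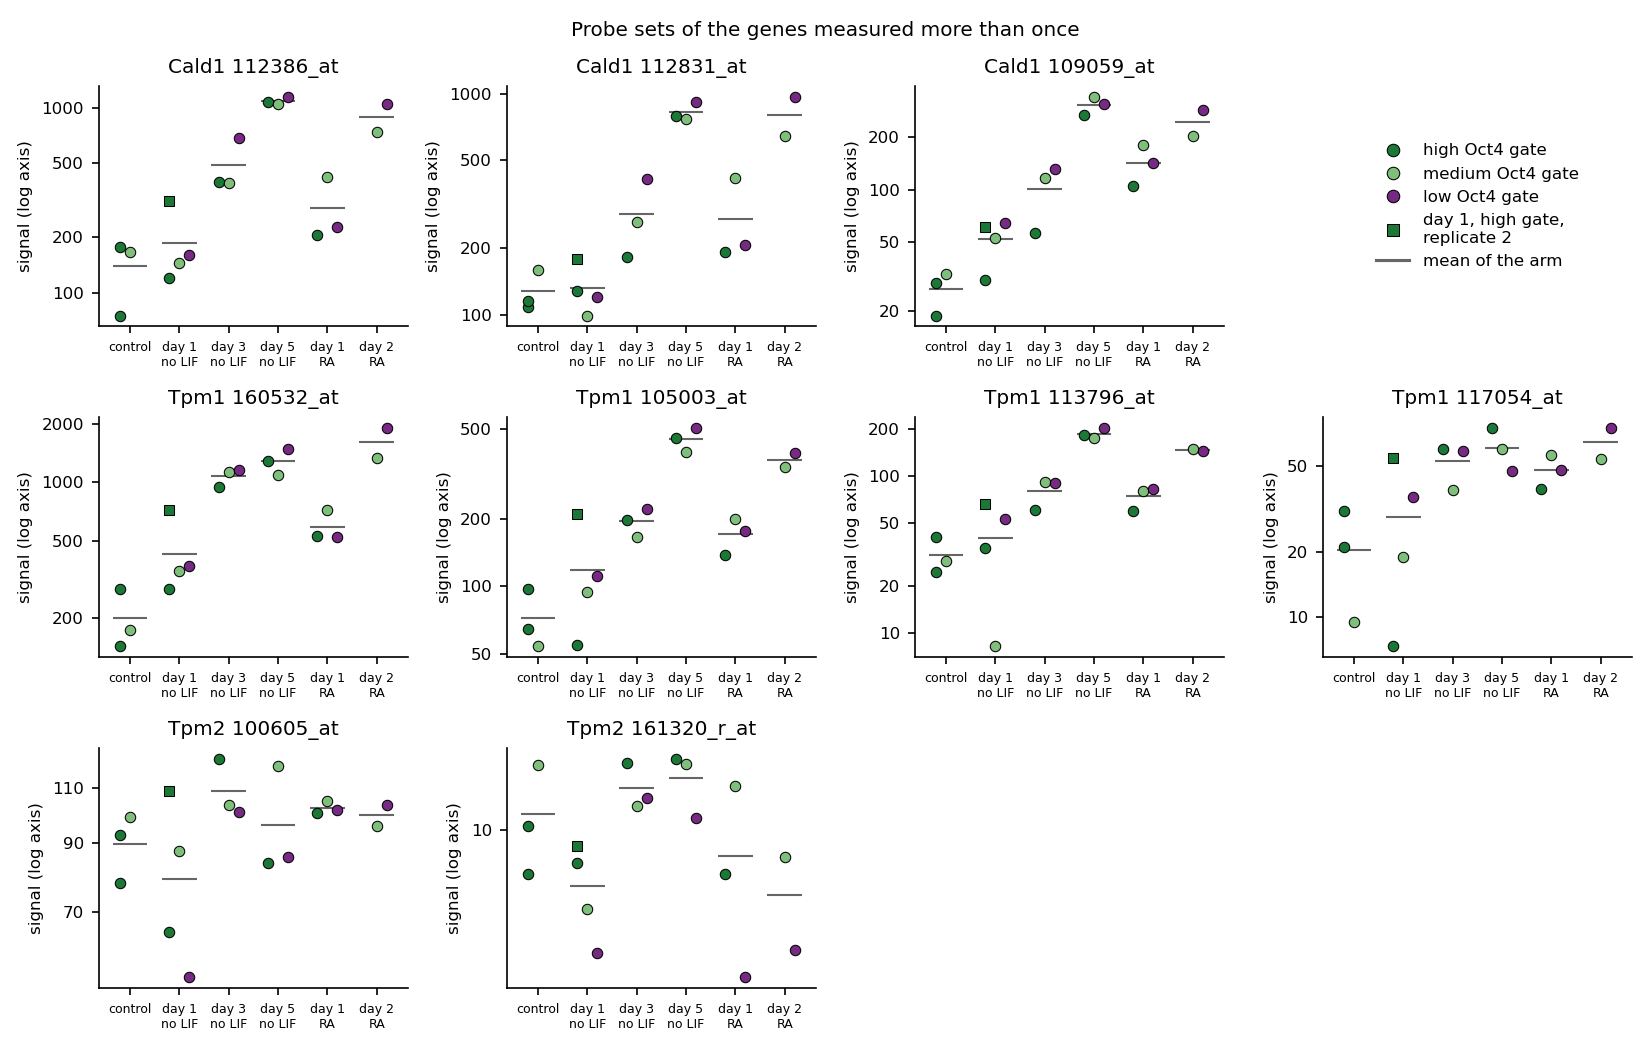
Signal of every probe set of Cald1, Tpm1 and Tpm2 in each library (vertical log axis, linear signal units), arranged by arm and coloured by gate, with a square for day 1 high replicate 2 and a line for the arm's mean. The 3 Cald1 probe sets all have their highest arm mean at day 5 (1089, 828 and 308), though the day 5 libraries overlap those of day 2 with RA. The Tpm2 probe sets show no comparable rise.

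Across the 18 libraries the main probe sets of Tagln and Tpm1 were the most alike pair (Pearson r = 0.951), and Tagln correlated with Dcn at 0.85, with Cald1 at 0.839 and with Acta2 at 0.834. Pairs with Tpm2 ran from 0.296 to 0.569 and pairs of Timp3 with members other than Tpm2 from 0.535 to 0.753. The non-member genes most like the mean of the centred members were Tspan6 (0.975), Irs1 (0.973), Wls (0.97), Lats2 (0.97), Card10 (0.959), Ltb (0.958), Lsr (0.957), Tpm4 (0.956), Acta1 (0.953) and Myh10 (0.953). They include another tropomyosin gene, the skeletal actin gene and a non-muscle myosin heavy chain. For Tagln alone they were Amotl2 (0.978), Myh10 (0.973), the integrin-linked kinase Ilk (0.966), Setbp1 (0.966) and the Wnt receptor Fzd2 (0.959). All points share the same arms, gates and scan days, so these values describe likeness only.

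Genes of actin filaments outside the member set passed in part. Of 28 measured genes of the actin cytoskeleton and smooth muscle contraction, 13 were higher and 2 lower at day 5 against control, with a median of 0.52, where 17.2% of all 9833 genes were higher and 15.2% lower with a median of 0.01. They include the non-muscle myosin gene Myh10 (1.76 ± 0.23, adjusted p = 0.000125), Tpm4 (1.86 ± 0.27, adjusted p = 0.000129) and the alpha-actinin gene Actn1 (1.13 ± 0.18, adjusted p = 0.000215), against Csrp2, a smooth muscle LIM protein, at -1.65 ± 0.22 (adjusted p = 6.77e-05). At day 2 with RA 13 were higher and 1 lower (median 0.65, against 8.79% and 8.4% of all genes). These include Myh10 (2.12 ± 0.27, adjusted p = 0.000634), the small GTPase gene Rhob (2.39 ± 0.35, adjusted p = 0.000557) and Pdlim7 (1.92 ± 0.26, adjusted p = 0.000341). For RA against no RA at day 1, 1 was higher and 1 lower (3.28% and 3.45% of all genes), the calponin gene Cnn1 at 1.67 ± 0.45 (adjusted p = 0.0355) and Csrp2 at -0.73 ± 0.20 (adjusted p = 0.0378).

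Among SRF, its cofactors and their immediate targets, 11 of 18 measured genes were higher and 0 lower at day 5 (median 0.97), and 7 were higher and 0 lower at day 2 with RA (median 0.44). Of all genes 17.2% were higher and 15.2% lower at day 5, and 8.79% and 8.4% at day 2 with RA. Acta1, which codes for skeletal actin, rose by 4.11 ± 0.65 at day 5 (adjusted p = 0.000261) and by 3.76 ± 0.77 at day 2 with RA (adjusted p = 0.00404). Its mean signal was 5.95 in controls, 153 at day 5 and 115 at day 2 with RA. At its control level it would not have passed the brightness filter, so the size of these changes depends on the dim end of the chip. The immediate early gene Fos rose by 2.67 ± 0.46 at day 5 (adjusted p = 0.00045). The secreted matricellular genes Ccn1 and Ccn2 rose by 2.94 ± 0.48 and 2.66 ± 0.48 at day 2 with RA (adjusted p = 0.00114 and 0.00204). For RA against no RA at day 1, 1 of the 18 was higher, Ccn2 at 1.66 ± 0.38 (adjusted p = 0.0182), and 1 lower, the immediate early gene Egr1 at -0.87 ± 0.19 (adjusted p = 0.0164). These shares are near those of all genes, 3.28% higher and 3.45% lower. Of 16 TGF-beta ligands, receptors and targets, 10 were higher and 1 lower at day 5 (median 0.75) and 5 higher and 2 lower at day 2 with RA (median 0.33). The receptor gene Tgfbr2 rose by 2.14 ± 0.31 (adjusted p = 0.000281) and Id1, an inhibitor of basic helix-loop-helix factors, by 1.83 ± 0.26 (adjusted p = 0.000122) at day 5, and the inhibitory Smad7 fell by 1.77 ± 0.25 (adjusted p = 9.56e-05). Vcl, Actb, Actg1, Fhl1 and Fhl2 stand on both the first and the second of these lists.

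On the list around Dcn, 11 of 26 matrix genes were measured, that is, passed the brightness filter, which uses the mean over all arms. Of these, 9 were higher and 0 lower at day 5 (median 0.94), with the collagen gene Col5a1 at 1.68 ± 0.15 (adjusted p = 2.59e-06) and the matrix glycoprotein gene Sparc at 1.51 ± 0.21 (adjusted p = 0.000105). At day 2 with RA 2 of 11 were higher (median 0.27, against 8.79% of all genes higher), the fibulin gene Fbln1 at 1.21 ± 0.24 (adjusted p = 0.00325) and Sparc at 1.03 ± 0.25 (adjusted p = 0.0109), while Dcn stood at 4.03. For RA against no RA at day 1, 0 of 11 matrix genes passed, against 3.28% of all genes higher and 3.45% lower. On the list around Timp3, 2 of 10 measured TIMPs and metalloproteinases were higher and 1 lower at day 5 (median 0.18), shares near the 17.2% and 15.2% of all genes. The membrane protease gene Mmp14 rose by 1.28 ± 0.17 (adjusted p = 8.16e-05) and Mmp11 fell by 1.47 ± 0.31 (adjusted p = 0.00203). Of 11 regulators of the change from epithelium to mesenchyme, 4 were higher and 2 lower at day 5 (median 0.77), with the N-cadherin gene Cdh2 at 4.65 ± 0.39 (adjusted p = 1.37e-06) and Twist1 at 2.44 ± 0.37 (adjusted p = 0.000179), against the mesoderm factor gene Tcf15 at -2.07 ± 0.235 (adjusted p = 1.76e-05). The E-cadherin gene Cdh1 differed by 0.14 with SE 0.20 (adjusted p = 0.634), and the simple keratin gene Krt18 rose by 4.26 ± 0.36 (adjusted p = 1.46e-06). At its control mean of 18.6, Twist1 would not have passed the brightness filter.

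**Figure D5:**
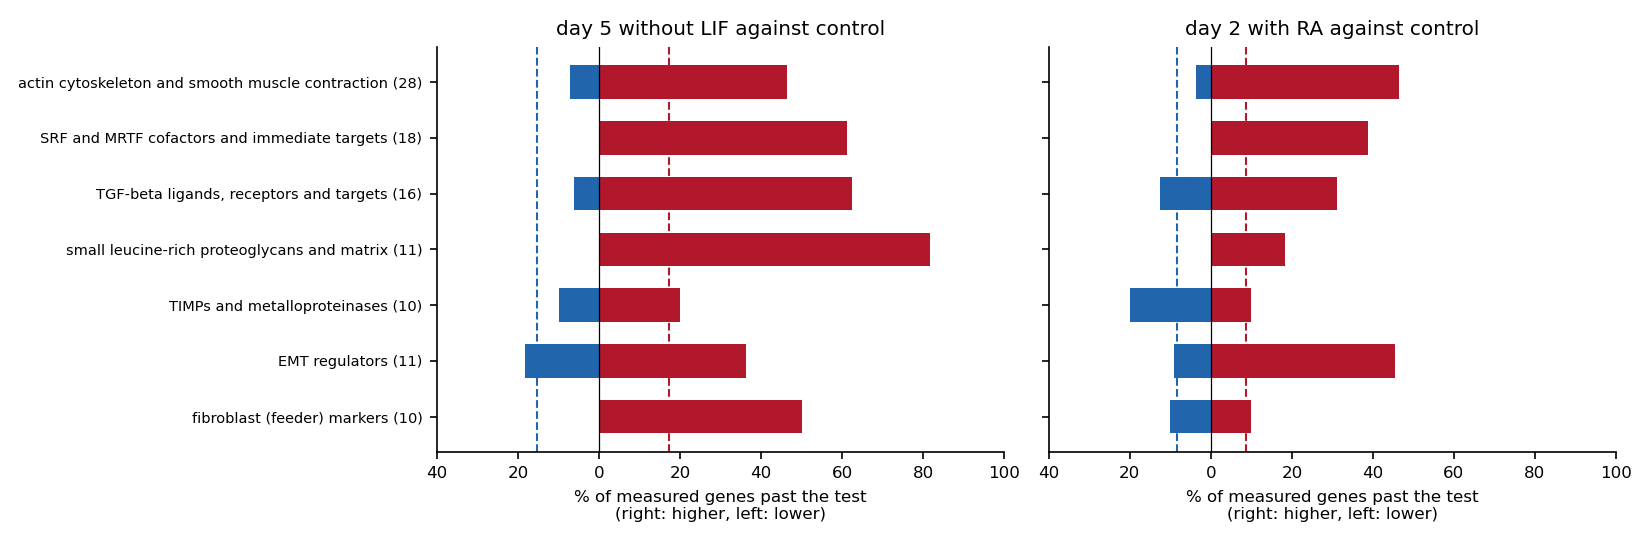
Share of the measured genes of each list (those past the brightness filter) that passed the test (horizontal axis in percent, higher to the right, lower to the left) for day 5 (left panel) and day 2 with RA (right panel), each against control, with the number measured in brackets and dashed lines for all 9833 genes. At day 5 matrix genes show the largest share higher among these lists, 9 of 11, and at day 2 with RA actin genes show 13 of 28.

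Markers of other cell types also passed in some of these arms, where of all genes 17.2% were higher and 15.2% lower at day 5 and 8.79% and 8.4% at day 2 with RA. Of 20 fibroblast markers 10 passed the brightness filter, and 5 of these were higher and 0 lower at day 5, among them the growth factor receptor gene Pdgfra (3.35 ± 0.40, adjusted p = 2.45e-05), Twist1 and the collagen gene Col1a1 (0.93 ± 0.23, adjusted p = 0.0064). All of these 10 except Pdgfra and Thy1 also stand on the matrix, metalloproteinase or epithelium-to-mesenchyme lists above, so those counts partly repeat the same genes. Sparc, Acta1, Actc1, Cdh1, Epcam and Eng likewise stand on an earlier list and on a marker list here. Their summed signal was 554 to 704.7 in controls, 540.9 to 830.2 at day 1 and 681.5 to 767.3 at day 3 without LIF, 1085 to 1547 at day 5, 608.5 to 689.3 at day 1 with RA and 706 to 893.9 at day 2 with RA. The 10 markers under the filter, among them Col3a1, Lum, Postn, Pdgfrb and Fap, had arm means of at most 36.9, that of S100a4 at day 5 (16.6 in controls). Past the filter, the mean of Pdgfra was 29.7 in controls, 405.5 at day 5 and 73.9 at day 2 with RA, and that of the collagen gene Col1a2 260 in controls and 305 at day 5. At day 1 with RA the fibroblast sum lay within the range of the controls. Against control 1 of the 10 markers was then higher and 1 lower (11% and 9.95% of all genes). Col1a2, a large part of the sum, had means of 260 in controls and 278 at day 1 with RA. Those of Twist1 were 18.6 and 49.8, and those of Thy1 52.7 and 13.8. Of 16 parietal and visceral endoderm markers 6 were higher and 2 lower at day 5, and 7 were higher and 0 lower at day 2 with RA, where Acta2 was highest. Among these were Dab2 (3.64 ± 0.58, adjusted p = 0.000931), Cubn (2.99 ± 0.57, adjusted p = 0.00267) and the basement membrane collagen gene Col4a1 (2.37 ± 0.40, adjusted p = 0.00139), and the summed signal was 2968 to 4969 against 1663 to 1872 in controls. Of 8 simple epithelium markers 6 were higher and 1 lower at day 5, and 3 were higher and 1 lower at day 2 with RA. All 7 measured markers of undifferentiated cells were lower in both arms. Of 11 striated muscle markers past the filter, 2 were higher (Acta1 and Tnni3) and 1 lower (Myh6) at day 5, shares near those of all genes, and of 3 endothelial and pericyte markers 1 was higher (Rgs5). At their control means Dab2 (19.7), Cubn (23.4), Twist1 (18.6) and Rgs5 (23.6) would not have passed the brightness filter. They were tested through other arms, and the size of their changes depends on the dim end of the chip. The part of these cell types in the member changes was not tested.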

How the data were processed

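Total RNA of 18 sorted samples was amplified and hybridised to 2 Affymetrix mouse arrays each, 36 in all. The deposited tables hold linear signal intensity values. Per the submitters' processing notes these come from MAS5 (version not stated there). Their 2% trimmed mean is nearly the same on every array of a chip, so they had been scaled by the authors and were not normalized further. The number of arrays limits the precision.

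Values of log2(signal + 4) on chip A and log2(signal + 7) on chip B were tested for the brightest 60% of probe sets (7453 and 7447), with p-values adjusted by Benjamini-Hochberg within each chip (lmFit, eBayes, arm and gate additive, all 18 samples). Comparisons within a scan day used the libraries of the arms compared that share the day, taken from the run records. The procedure was run on simulated data with independent noise and no scan-day effect, set up as day 5 without LIF against control. It recovered 73% (chip A) and 58% (chip B) of log2 changes of size 1, and 96% and 92% of size 2. The simulation cannot show how the p-values hold under scan-day effects or a library that stands apart. The versions were limma 3.58.1, statmod 1.5.0 and R 4.3.3. Probe sets were named from the platform annotation, where 10833 of 12422 on chip A and 10581 of 12411 on chip B had 1 symbol. A gene's main probe set is the one past the filter, chip A before chip B, then the brightest.

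The members, gene lists and tests were chosen with earlier results of these data known. By rule the text names the members, up to 4 genes of each list with the smallest p in the main comparisons, Pou5f1, Cdh1 and Krt18, and the most alike genes. Alternatives were quantile normalization, 4 times the pseudocount, no filter, scan day as a random or fixed block, an intensity trend, and leaving out each library.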

Additional observations from a re-analysis of the deposited data

How the results depend on the processing

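No change past the test reversed its direction under any alternative run, while the Tagln difference between low and high gate, which passed in neither fit, went from -0.17 to 0.22 without day 1 high replicate 2. Of the single-gene values under alternatives other than leaving out a library, 492 kept their side of the threshold, 18 gained the call and 32 lost it. Over the fits that each left out 1 library, 1281 kept it, 23 gained the call and 54 lost it. The number of member probe sets past the test moved by over 1.5 times as follows. At day 1 without LIF against control (0) it was 3 with scan day as a fixed block, 1 with an intensity trend, and 0 to 1 over the fits that each left out 1 library. At day 3 against control (6) it was 3 with a random block for scan day and 3 to 7 over the left-out libraries. For day 3 against day 1 (3) it was 1 without the filter, 0 with the random block and 0 to 10 over the left-out libraries. For day 5 against day 3 (4) it was 7 with 4 times the pseudocount. For RA against no RA at day 1 (4) it was 2 without the filter, 0 with the random block and 1 to 9 over the left-out libraries. For day 2 with RA against day 5 (0) it was 1 with quantile normalization, 4 times the pseudocount, the random block or the fixed block, and 0 to 1 over the left-out libraries, each time Acta2. Within a scan day, day 1 with RA against day 3 (2) gave 0 without the filter and 0 to 2 over the left-out libraries, day 2 with RA against day 5 (1) gave 2 with 4 times the pseudocount or an intensity trend and 0 without the filter, and day 2 with RA against day 1 (9) gave 0 without the filter, when Tagln had an adjusted p of 0.0615 and 0 of 24833 probe sets passed. In the high gate alone, day 1 without LIF against control gave 0 of 11 (768 of all 14900 with an unadjusted p under 0.05), 0 with a replicate block and 0 to 4 over the left-out libraries; the 4 came without day 1 high replicate 1, which leaves the library that stands apart. With all 8 libraries of scan 3 in 1 fit, chosen after the data were seen, the counts over the left-out libraries were 0 to 1 for day 2 with RA against day 5 and 4 to 9 for day 2 with RA against day 1. The labels tie no replicate of control to one of day 1, though the replicate 2 samples share scan 1 and the replicate 1 samples share no scan day, and the correlations of deviations were 0.173 on chip A and 0.115 on chip B. They were not treated as pairs. The counts of day 5 (10) and day 2 with RA (9) against control stayed within 1.5 times, at 9 to 10 and 7 to 9 over the left-out libraries, although Timp3 at day 5 fell to 0.78 (adjusted p = 0.262) with the fixed block.

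Counts over all tested probe sets also moved. With scan day as a random block they went from 307 to 72 at day 1, from 1716 to 387 at day 3 and from 2908 to 942 at day 1 with RA against control, from 508 to 8 for day 3 against day 1, from 2893 to 972 for day 5 against day 3 and from 972 to 4 for RA against no RA at day 1. Without the filter they went from 307 to 101, from 508 to 172 and from 972 to 380 for day 1 against control, day 3 against day 1 and RA against no RA at day 1. Within a scan day they went without the filter from 4163 to 2608 (day 5 against day 1), from 245 to 10 (day 1 with RA against day 3), from 607 to 0 (day 2 with RA against day 5) and from 896 to 0 (day 2 with RA against day 1). With the intensity trend the last 3 were 907, 1768 and 2402, and with 4 times the pseudocount 580, 1032 and 1506. The fixed block gave 535 at day 1 and 1866, from 1216, for day 2 with RA against day 5. The causes were not tested. Signals near the dim end, as for Acta2, Dcn and Acta1 in controls, limit the size of their changes.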
